A study of Mus musculus with 6 samples.

Results

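Probes for 10 genes that gate the passage of a cell from G1 into S phase were followed in cultured mouse osteoblasts. The genes are the D-type cyclins Ccnd1, Ccnd2 and Ccnd3, the cyclin-dependent kinase (CDK) inhibitors Cdkn1a (p21), Cdkn1b (p27), Cdkn2a (p16Ink4a and p19Arf), Cdkn2b (p15Ink4b) and Cdkn2c (p18Ink4c), the tumor suppressor Trp53 (p53) and its antagonist Mdm2. They were taken by name, through the RefSeq transcript that the array design gives for each probe. They are 10 of 20659 genes named on the array. This found 14 of its 39429 probes, with 2 probes each for Cdkn1a, Cdkn2a, Cdkn2b and Ccnd3 and 1 probe for each of the other 6 genes.

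The cells were primary osteoblasts from the calvariae of CD1 mice aged 2 to 5 days. They were hybridized at confluence before any differentiation (undifferentiated), after 30 days in differentiation medium (differentiated), or after 30 days in the same medium with cabozantinib (XL184), an inhibitor of the receptor tyrosine kinases MET and VEGFR2 (cabozantinib). The time is that of the labels, and the study's text also gives an earlier day for the array cells. Each condition had 2 one-color Agilent arrays. No label says whether the 2 arrays of a condition came from separate cultures, so that p values measure the spread between these arrays, which may be technical.

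Levels below are log2 signals minus the 75th percentile of the array, so that a level of 0 is the signal that 75% of the probes stay under. The 75th percentile was 625 and 1773 signal units for undifferentiated, 1095 and 649 for differentiated and 1277 and 961 for cabozantinib cells. The share of spots called well above background by the scanner software was 61.1% and 72.9%, 64.8% and 67.4%, and 58.9% and 58.8%, in the same order. No spot was saturated. Replicate arrays were farthest apart in the undifferentiated group, where the differences between them over the tested probes had an SD of 0.87, against 0.73 for differentiated and 0.64 for cabozantinib. By the scan stamps in the headers, the 4 arrays without cabozantinib were scanned together and both cabozantinib arrays in another scan. Each set was taken as a slide, so that slide or scan and cabozantinib cannot be told apart. All 14 probes were among the 27196 probes tested with limma, after a filter that asked for 2 of the 6 arrays or more with a signal well above background. Of them, 12 were well above background on all 6 arrays. The exceptions were Trp53, which passed only through its 2 undifferentiated arrays, and 1 of the Cdkn1a probes.

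D-type cyclins bind CDK4 and CDK6 and are the link between growth factor signals and the cell cycle: the kinases they activate phosphorylate the retinoblastoma protein RB, which releases E2F factors to drive the genes of DNA replication. The INK4 inhibitors (Cdkn2a, Cdkn2b, Cdkn2c) block CDK4 and CDK6, and the CIP/KIP inhibitors (Cdkn1a, Cdkn1b) act mainly on the kinases bound to cyclins E and A. p53 turns on Cdkn1a and Mdm2, Mdm2 marks p53 for degradation, and p19Arf holds Mdm2 back. Osteoblast precursors divide until confluence and then leave the cell cycle as they lay down and mineralize matrix.

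The question of the first comparison is how these genes differ between differentiated and undifferentiated osteoblasts. The cyclins that passed the test fell and the inhibitor genes divided. Ccnd1, Ccnd2 and 1 of 2 Ccnd3 probes fell, 1 of 2 probes each of Cdkn1a and Cdkn2b also fell, and Cdkn1b rose. Of the Cdkn2a probes 1 of 2 rose, and it is assigned to the p19Arf transcript, so that it is not shown to read a CDK inhibitor. At an adjusted p under 0.05 in limma, 2 of the 14 probes were higher and 6, Trp53 among them, were lower. Over all probes tested, 13.9% passed that threshold, 6.85% higher and 7.06% lower. The groups did not overlap for 3 probes that were higher and 9 that were lower, while 46.3% of all probes did not overlap, 24.9% higher and 21.4% lower. The median log2 fold change of the 14 probes was -0.91, and that of all probes was 0.08. In bulk RNA, fewer cells of a type and less RNA per cell cannot be told apart.

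**Figure D1:**
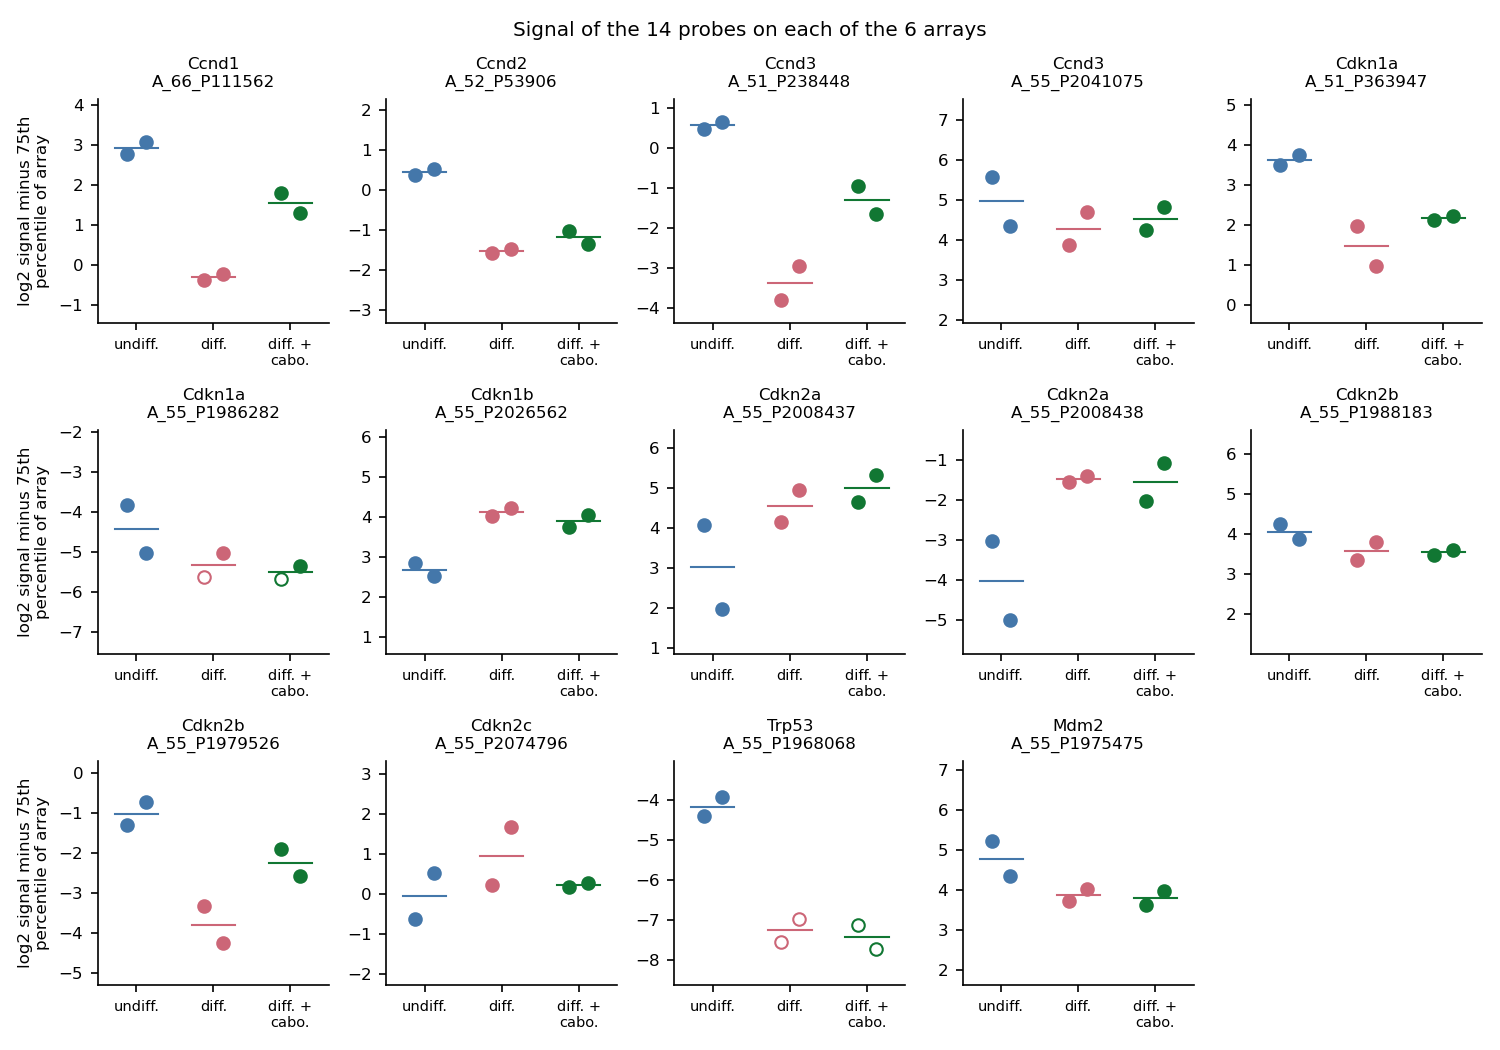
Log2 signal minus the 75th percentile of the array (y axis) for each of the 14 probes on the 2 arrays of each group (points; undifferentiated, differentiated, and differentiated with cabozantinib), with lines at the group means and open points where the probe was not well above background. Every panel spans the same number of log2 units; Ccnd1 falls from a mean of 2.93 to -0.29 and stands at 1.55 with cabozantinib.

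Ccnd1 encodes cyclin D1. Its level was 2.78 and 3.08 in undifferentiated, -0.37 and -0.22 in differentiated and 1.81 and 1.30 in cabozantinib cells. The 3 groups did not overlap, with cabozantinib between the other two. In differentiated against undifferentiated cells the log2 fold change was -3.22 (SE 0.36, n = 2 arrays per group; adjusted p = 0.00207 in limma), 9.33-fold lower.

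Ccnd2, for cyclin D2, was at 0.37 and 0.53 in undifferentiated, -1.56 and -1.46 in differentiated and -1.01 and -1.34 in cabozantinib cells. It fell with differentiation by 1.96 on the log2 scale (SE 0.34, adjusted p = 0.00959 in limma). The call was narrowly lost when either differentiated array was left out, with an adjusted p of 0.0586 without replicate 1 and 0.0516 without replicate 2, while the log2 fold change stayed at -1.91 and -2.01.

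Ccnd3, for cyclin D3, had 2 probes that disagreed. Probe A_51_P238448, which the array design assigns to transcript NM_007632, was at 0.49 and 0.66 in undifferentiated, -3.79 and -2.94 in differentiated and -0.95 and -1.64 in cabozantinib cells, again with no overlap between the 3 groups. Its log2 fold change with differentiation was -3.94 (SE 0.43, adjusted p = 0.002005 in limma), the lowest of the 14 probes and within the lowest 0.86% of all probes tested. Probe A_55_P2041075, assigned to NM_001081636, was at 5.57 and 4.35, at 3.86 and 4.69, and at 4.24 and 4.82 in the same order. All 3 groups overlapped on this probe, and its log2 fold change with differentiation was -0.68 (SE 0.53, 95% interval -1.91 to 0.55, adjusted p = 0.509 in limma).

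Of the CIP/KIP inhibitors, Cdkn1a fell on 1 of its 2 probes and Cdkn1b rose. Cdkn1a is the inhibitor that p53 induces. Its probe A_51_P363947 is printed in 10 spots on every array. Over the 7 to 10 spots left after outlier spots were removed, log2 signals had an SD between 0.01 and 0.07 within an array. Its level was 3.52 and 3.75 in undifferentiated, 1.99 and 0.97 in differentiated and 2.14 and 2.23 in cabozantinib cells. Both undifferentiated arrays were above the other 4, and the 2 differentiated arrays lay apart by more than these spots did. The log2 fold change with differentiation was -2.15 (SE 0.42, adjusted p = 0.0158 in limma). Without differentiated replicate 2, the lower of the pair, it was -1.64 with an adjusted p of 0.0874. The second Cdkn1a probe, A_55_P1986282 for transcript NM_001111099, was dim, at -3.82 and -5.01, -5.62 and -5.02, and -5.66 and -5.34, with 1 differentiated and 1 cabozantinib array not well above background. Its log2 fold change was -0.91 (SE 0.48, adjusted p = 0.302 in limma).

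Cdkn1b keeps quiescent cells out of the cycle. It was at 2.86 and 2.52 in undifferentiated, 4.02 and 4.24 in differentiated and 3.74 and 4.06 in cabozantinib cells, so that the undifferentiated arrays were below all others. It rose with differentiation by 1.44 on the log2 scale (SE 0.35, 2.71-fold, adjusted p = 0.0335 in limma). The size varied from 1.25 to 1.60 over 16 alternative analyses, but the call held in only 5 of them. It was lost when any array other than undifferentiated replicate 1 was left out (adjusted p 0.0785 to 0.168).

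The INK4 genes Cdkn2a and Cdkn2b are neighbors on mouse chromosome 4, and Cdkn2a has 2 starts: the one nearer Cdkn2b begins the p19Arf transcript and the other the p16Ink4a transcript. Because probes of the 2 genes moved in opposite directions, the 250 bases before each start are shown as RefSeq gives them on GRCm38.p6, 5′ to 3′ on the minus strand: chr4:89294620-89294869 for p19Arf, chr4:89282193-89282442 for p16Ink4a and chr4:89311033-89311282 for Cdkn2b. The p19Arf start lies 16413 bases beyond the Cdkn2b start and the p16Ink4a start 12427 bases farther on. Capitals mark an E2F site (TTTCCCGC or TTTGGCGC) or a GC box (GGGCGG), each searched on both strands, and no marked matches overlap. A TATA box (TATAAA, forward strand) and an E-box (CACGTG, both strands) were also searched.
Cdkn2a, p19Arf start: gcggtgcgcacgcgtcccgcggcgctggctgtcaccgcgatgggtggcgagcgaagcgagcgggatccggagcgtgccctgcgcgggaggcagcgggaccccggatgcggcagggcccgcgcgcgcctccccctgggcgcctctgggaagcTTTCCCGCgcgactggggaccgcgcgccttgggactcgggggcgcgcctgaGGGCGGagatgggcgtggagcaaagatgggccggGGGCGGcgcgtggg
Cdkn2a, p16Ink4a start: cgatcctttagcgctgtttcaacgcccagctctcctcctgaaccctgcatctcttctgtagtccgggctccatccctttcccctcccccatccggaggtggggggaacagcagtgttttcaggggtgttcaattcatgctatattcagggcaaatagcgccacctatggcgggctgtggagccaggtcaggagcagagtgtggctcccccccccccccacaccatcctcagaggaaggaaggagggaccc
Cdkn2b start: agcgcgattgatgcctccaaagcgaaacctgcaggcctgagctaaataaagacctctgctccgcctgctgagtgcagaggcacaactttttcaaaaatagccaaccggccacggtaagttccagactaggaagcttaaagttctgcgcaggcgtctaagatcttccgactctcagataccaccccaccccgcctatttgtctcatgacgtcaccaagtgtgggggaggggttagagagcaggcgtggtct
The p19Arf window held 1 E2F match, 92 to 99 bases before the start, and 2 GC boxes. It was 78.4% G and C, against 60.0% for the p16Ink4a window and 53.6% for the Cdkn2b window, neither of which held a match. Of all 32851 promoter windows of this length, 1.3% held an E2F match, 32.7% a GC box, 7.59% a TATA box and 6.02% an E-box. Of the 12 windows of 8 of the 10 genes in the table, 1 held an E2F match, 7 held a GC box and 0 held either of the others. Cdkn1b had 1 GC box, 56 to 61 bases before its start, and the single Trp53 window had none. These are matches of letters in a window and say nothing of binding.

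Both Cdkn2a probes are assigned to NM_009877, the p19Arf transcript, and whether either one also reads the exons shared with p16Ink4a was not tested. Probe A_55_P2008438 was at -3.04 and -5.02 in undifferentiated, -1.56 and -1.40 in differentiated and -2.02 and -1.09 in cabozantinib cells. It rose with differentiation by 2.55 on the log2 scale (SE 0.66, 5.84-fold, adjusted p = 0.0434 in limma). Probe A_55_P2008437 was at 4.08 and 1.98, 4.16 and 4.95, and 4.66 and 5.34, and its log2 fold change was 1.53 (SE 0.69, 95% interval -0.10 to 3.15, adjusted p = 0.219 in limma). On both probes undifferentiated replicate 2 was below replicate 1 by about the size of the change. Without replicate 1 the log2 fold changes were 3.54 and 2.58 (adjusted p = 0.00303 and 0.0125), and without replicate 2 they were 1.55 and 0.47 (adjusted p = 0.0865 and 0.635). The call on A_55_P2008438 was also lost without either differentiated array, with an adjusted p of 0.134 without replicate 1 and 0.173 without replicate 2.

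Cdkn2b, an inhibitor known as a target of TGF-beta, also had probes that differed. Probe A_55_P1979526 was at -1.30 and -0.74 in undifferentiated, -3.33 and -4.26 in differentiated and -1.91 and -2.58 in cabozantinib cells, without overlap between the 3 groups. It fell with differentiation by 2.78 on the log2 scale (SE 0.46, adjusted p = 0.00857 in limma), and without differentiated replicate 2 by 2.32 (adjusted p = 0.0534). Probe A_55_P1988183 was at 4.25 and 3.87, 3.37 and 3.81, and 3.49 and 3.61, with a log2 fold change of -0.47 (SE 0.36, 95% interval -1.31 to 0.36, adjusted p = 0.497 in limma). Cdkn2c was at -0.63 and 0.51, 0.21 and 1.66, and 0.17 and 0.27. Its groups overlapped, and its log2 fold change was 1.0 (SE 0.58, adjusted p = 0.350 in limma).

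Trp53 was read by a single dim probe, A_55_P1968068. It stood well above background in undifferentiated cells only, at -4.40 and -3.92, and not on the other 4 arrays, at -7.53 and -6.96 in differentiated and -7.12 and -7.71 in cabozantinib cells. It was at least 3.36-fold lower in differentiated than in undifferentiated cells (adjusted p = 0.00370 in limma). This bound sets the undifferentiated mean against the lowest signal called well above background on each differentiated array. Because the probe entered the test only through the group where it was high, its call is a description. With a normexp background correction the probe did not pass the threshold (adjusted p = 0.497 in limma).

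Mdm2 was at 5.22 and 4.34 in undifferentiated, 3.72 and 4.02 in differentiated and 3.63 and 3.98 in cabozantinib cells. The undifferentiated arrays were above the other 4. The log2 fold change with differentiation was -0.91 (SE 0.41, 95% interval -1.88 to 0.06, adjusted p = 0.219 in limma). It passed the threshold after quantile normalization, at -1.03 with an adjusted p of 0.0386.

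**Figure D2:**
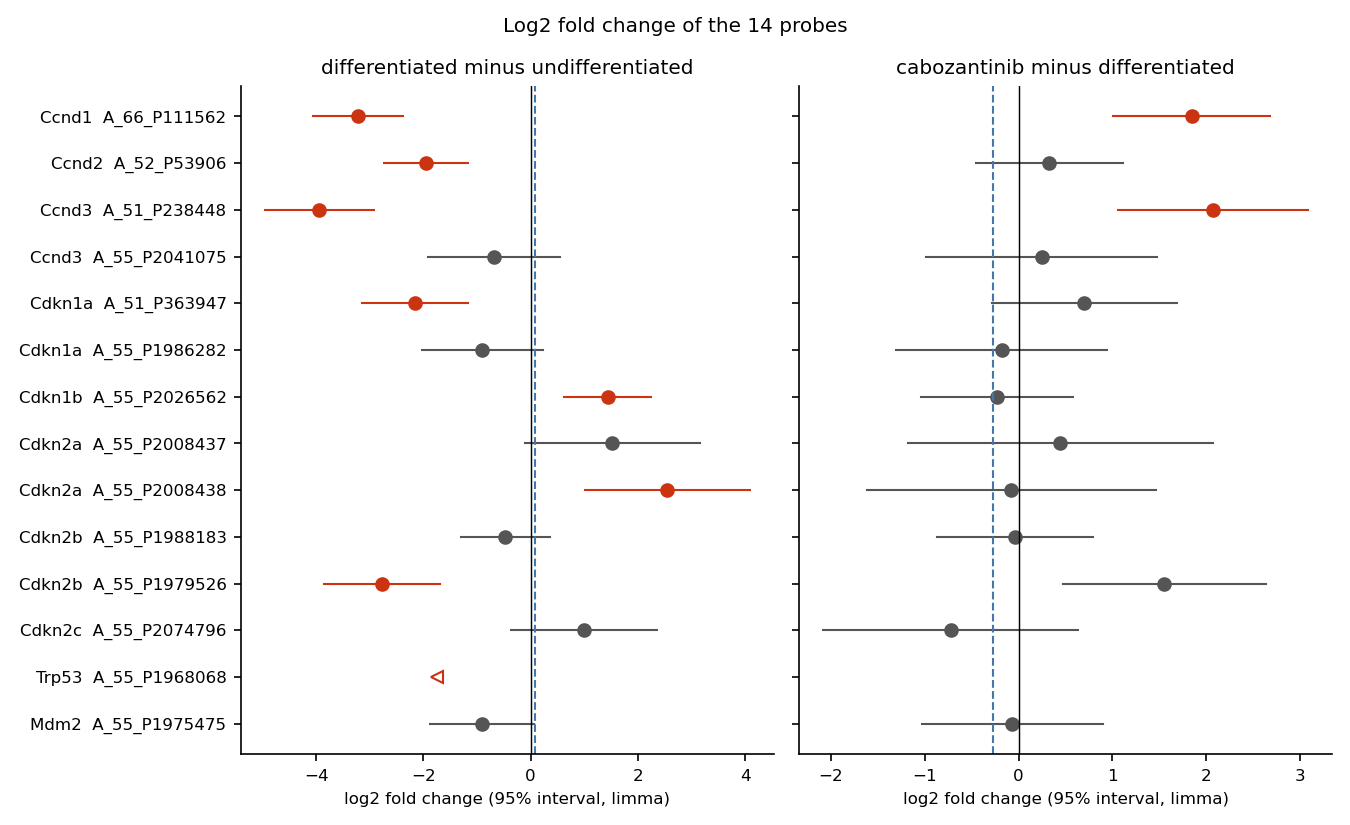
Log2 fold change (x axis) of each of the 14 probes in differentiated against undifferentiated cells (left) and in cabozantinib-treated against differentiated cells (right), as points with 95% intervals from limma; red marks an adjusted p under 0.05 and the dashed line the median of all probes, 0.08 on the left and -0.27 on the right. The Trp53 triangle on the left marks its bound, at least 3.36-fold lower, and Trp53 is left out on the right, where neither group was well above background.

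The calls for Ccnd1 and for the Ccnd3 probe A_51_P238448 held in 14 of 16 alternative analyses each. Of the 14 probes, 5 passed without differentiated replicate 1, 3 without differentiated replicate 2 and 4 with normexp, all of them lower. The first 2 of these counts include Trp53, whose call is a description. The normexp count does not.

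The second comparison asks what cabozantinib changed in cells kept in differentiation medium. Ccnd1 and the Ccnd3 probe A_51_P238448 rose, none of the 14 probes passed the test as lower, and no CDK inhibitor, Trp53 or Mdm2 passed it. Of all probes tested, 12.5% passed at an adjusted p under 0.05, 0.875% higher and 11.7% lower. The groups did not overlap for 5 of the 14 probes, all higher, against 57.6% of all probes, 14% higher and 43.6% lower. On this scale the median of all probes was -0.27, and with quantile normalization it was -0.06. Of the probes that passed, 6.97% were higher on this scale and 38.8% after quantile normalization. Changes of the probes that passed are therefore also given relative to the median probe, as are those whose sign turns.

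Ccnd1 rose with cabozantinib by 1.85 on the log2 scale (SE 0.36, 95% interval 1.01 to 2.68, 3.59-fold, adjusted p = 0.0269 in limma), 2.12 above the median probe. The Ccnd3 probe A_51_P238448 rose by 2.07 (SE 0.43, 95% interval 1.06 to 3.08, 4.21-fold, adjusted p = 0.0301 in limma), 2.35 above the median probe. These probes stood at the 99.2 and 99.5 percentile of all probes tested. Cabozantinib left both below the undifferentiated level, as given for the third comparison. Both calls were lost in 12 of 16 alternative analyses, among them quantile normalization (adjusted p = 0.0668 and 0.0571), a fit with the replicate number as a block (adjusted p = 0.0688 and 0.0628) and the omission of any differentiated or cabozantinib array. The size moved less: it lay between 1.59 and 2.10 for Ccnd1 and between 1.58 and 2.495 for Ccnd3. Without differentiated replicate 1 and 2 the adjusted p was 0.0913 and 0.146 for Ccnd1 and 0.107 and 0.138 for Ccnd3. Without cabozantinib replicate 1 and 2 it was 0.213 and 0.0718 for Ccnd1 and 0.204 and 0.0639 for Ccnd3.

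**Figure D3:**
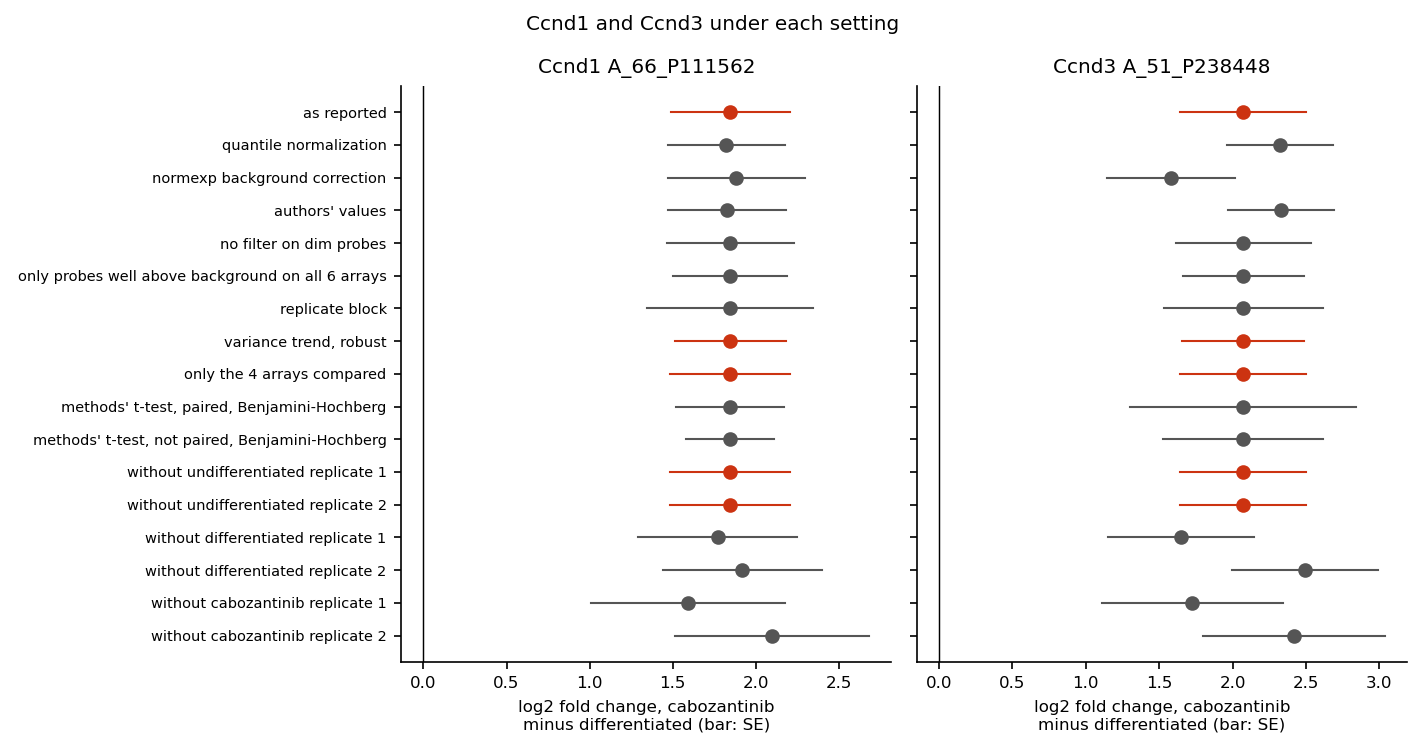
Log2 fold change of Ccnd1 and of the Ccnd3 probe A_51_P238448 in cabozantinib-treated against differentiated cells (x axis, bars are SE) as reported and under each of 16 alternative analyses (y axis), with red where the adjusted p was under 0.05. All 17 values are above 0 for both probes, while the threshold was passed in the reported analysis and 4 alternatives. Among these alternatives, the fits without either undifferentiated array equal the fit on only the 4 arrays compared, so they are not separate analyses.

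The Cdkn2b probe A_55_P1979526 had the next highest value, a log2 fold change of 1.55 with cabozantinib (SE 0.46, 95% interval 0.47 to 2.64, adjusted p = 0.0682 in limma). The other D-type cyclin readings were 0.33 for Ccnd2 (95% interval -0.46 to 1.12, adjusted p = 0.613) and 0.25 for the Ccnd3 probe A_55_P2041075 (95% interval -0.98 to 1.48, adjusted p = 0.838). The cabozantinib arrays of Ccnd2 were above the differentiated ones, while those of the second Ccnd3 probe overlapped them. Cdkn1a (A_51_P363947) was at 0.70 (95% interval -0.29 to 1.69, adjusted p = 0.340) and Cdkn1b at -0.23 (95% interval -1.04 to 0.58, adjusted p = 0.764). The Cdkn2a probes were at 0.44 and -0.07, with 95% intervals from -1.18 to 2.07 and from -1.62 to 1.47. Mdm2 was at -0.06 (95% interval -1.03 to 0.90, adjusted p = 0.953) and Cdkn2c at -0.72 (95% interval -2.08 to 0.64, adjusted p = 0.499). Each of these intervals includes a 2-fold change, up or down. The dim Cdkn1a probe A_55_P1986282 was at -0.18 (95% interval -1.31 to 0.95) and the Cdkn2b probe A_55_P1988183 at -0.04 (95% interval -0.87 to 0.80), and this last interval alone excludes a 2-fold change. Relative to the median probe the sign turned for Cdkn1b (0.05), Mdm2 (0.21), the Cdkn2a probe A_55_P2008438 (0.20) and the Cdkn1a and Cdkn2b probes just given (0.09 and 0.24). No fold is given for Trp53, which was not well above background in either group.

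**Figure D4:**
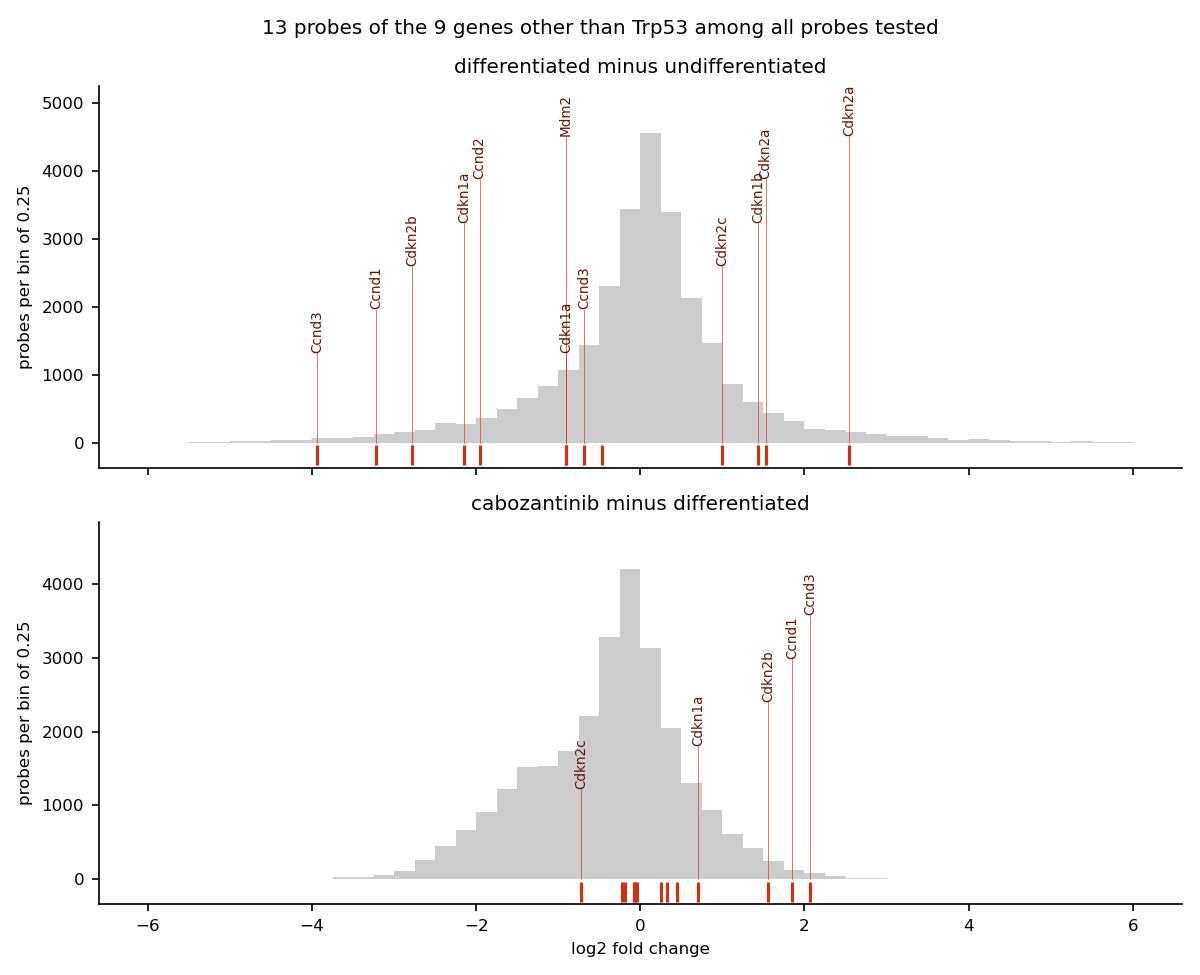
Number of probes (y axis) in bins of 0.25 of the log2 fold change (x axis) for all 27196 probes, with a red tick for each of the 13 probes other than Trp53 and gene names where the value is at least 0.6 from 0. In the upper panel Ccnd1, Ccnd2 and 1 of 2 probes each of Ccnd3, Cdkn2b and Cdkn1a lie in the lower tail. Their other probes are at -0.68, -0.47 and -0.91. In the lower panel Ccnd1 and 1 of 2 probes each of Ccnd3 and Cdkn2b lie in the upper tail, and the other probes of these 2 genes are at 0.25 and -0.04.

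The third comparison sets cabozantinib-treated cells against undifferentiated cells, and it shares arrays with both others. Lower than before differentiation were Ccnd1, Ccnd2, the Ccnd3 probe A_51_P238448, 1 of 2 Cdkn1a probes and Trp53, and higher were Cdkn1b and the Cdkn2a probe A_55_P2008438. That is 2 probes higher and 5 lower of 14, with 24.4% of all probes passing the threshold, 6.49% higher and 17.9% lower. The groups did not overlap for 3 probes that were higher and 9 that were lower, against 63.8% of all probes, 19.1% higher and 44.7% lower. The median of the 14 probes was -1.03 and that of all probes -0.40. Ccnd1 fell by 1.38 (SE 0.36, adjusted p = 0.0327 in limma), beside the change of -3.22 without the drug. The Ccnd3 probe fell by 1.87 (SE 0.43, adjusted p = 0.0235), beside -3.94 without the drug. Ccnd2 fell by 1.63 (adjusted p = 0.0170) and the Cdkn1a probe A_51_P363947 by 1.45 (adjusted p = 0.0452), beside -1.96 and -2.15. The other Cdkn1a probe was at -1.09 (adjusted p = 0.139). Cdkn1b rose by 1.21 (adjusted p = 0.0429) and the Cdkn2a probe by 2.47 (adjusted p = 0.0349), beside 1.44 and 2.55. Relative to the median probe these changes were -0.98 for Ccnd1, -1.47 for Ccnd3, -1.23 for Ccnd2, -1.05 for Cdkn1a, 1.61 for Cdkn1b and 2.87 for Cdkn2a. Trp53, counted among the 5 lower, was at least 2.48-fold lower (adjusted p = 0.00398), which is a description here too, as the probe passed the filter only through its undifferentiated arrays. The Cdkn2b probe A_55_P1979526 was at -1.23 (adjusted p = 0.0922), beside -2.78 without the drug. Most of these calls were lost under other settings: they held in 5 of 16 alternative analyses for Ccnd1 and for Cdkn1a, 4 for Cdkn1b, 7 for Cdkn2a, 10 for Ccnd2 and 11 for Ccnd3. With the replicate number as a block, 3 of the 14 probes passed. Without cabozantinib replicate 1 and 2 it was 3 and 1, without either differentiated array 4, and with normexp 0. Of all probes that passed, 26.6% were higher on this scale and 53.4% after quantile normalization.

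The order of the levels was the same for Ccnd1, the Ccnd3 probe A_51_P238448 and the Cdkn2b probe A_55_P1979526: highest in undifferentiated, then cabozantinib, then differentiated cells, each step without overlap. For Ccnd1 and Ccnd3 both steps passed the test as reported, and for Cdkn2b neither did. The step from differentiated to cabozantinib cells passed in 4 of 16 alternative analyses for both, and the step from cabozantinib to undifferentiated cells in 5 of 16 for Ccnd1 and 11 of 16 for Ccnd3. For Ccnd2 and the Cdkn1a probe A_51_P363947 the order was the same, but the step between cabozantinib and differentiated cells was not called. Cdkn1b was lowest in undifferentiated cells and the Cdkn2a probe A_55_P2008438 too, with no call between their other levels. Trp53 was highest in undifferentiated cells and not well above background elsewhere. On the remaining 6 probes no neighbors in the order passed the test.

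Genes around these members were taken from hand-written pathway lists, each gene read at its brightest probe. Over all 16119 named genes tested, 14.7% passed the threshold in differentiated against undifferentiated cells, 8.5% higher and 6.25% lower, with a median log2 fold change of 0.12. Genes of DNA replication and mitosis were lower in 6 of 18 and higher in 0, with a median of -1.07. Topoisomerase Top2a was at least 18.8-fold lower (adjusted p = 0.00461 in limma), going from -2.47 and -0.88 to signals not well above background on either differentiated array. It passed the filter through its undifferentiated arrays and 1 cabozantinib array, so that its value is a description. Rrm2, a subunit of ribonucleotide reductase, went from 4.72 and 4.24 to 1.87 and 2.89 (log2 fold change -2.10, adjusted p = 0.0197). The mitotic kinase Aurka went from 1.95 and 1.68 to -0.32 and 0.00 (log2 fold change -1.97, adjusted p = 0.00983). Mki67, the gene of the Ki-67 antigen of dividing cells, was at 2.75 and 2.52 and then at 2.12 and 2.24 (log2 fold change -0.45, adjusted p = 0.484).

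Of the cyclins of later phases and their kinases, 2 of 9 were lower and 0 higher, with a median of -1.02. Ccne1, for cyclin E1, fell by 1.91 on the log2 scale (adjusted p = 0.0396) and Ccna2, for cyclin A2, by 1.61 (adjusted p = 0.0266). In the list of CDK4/6, RB and E2F genes only the atypical repressor E2f7 passed, 1 of 14, with a log2 fold change of -1.35 (adjusted p = 0.0415). Cdk4, the partner of the D-type cyclins, was at 6.02 on average in undifferentiated and 5.98 in differentiated cells (log2 fold change -0.03, SE 0.37, adjusted p = 0.978), and Rb1 was at 0.48 (adjusted p = 0.455). Cdk6 did not pass the filter on dim probes. Of the other CDK inhibitors, Cdkn1c (p57) was at 1.22 (adjusted p = 0.0834), Cdkn3 at -1.50 (adjusted p = 0.0722) and Cdkn2d (p19Ink4d) at 0.28 (adjusted p = 0.831). The list around the SCF-SKP2 ligase, which turns over p27, had 6 genes tested, and Skp2 itself was not analysed here. In it Cks2, a CDK-binding protein that is a homolog of the ligase cofactor and not the cofactor itself, fell by 1.75 (adjusted p = 0.0297), while the cofactor gene Cks1b was at 0.0018 (adjusted p = 0.999). None of Ccne1, Ccna2, E2f7 and Cks2 passed with the replicate number as a block.

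Of 23 target genes of p53, 2 were higher and 3 lower, with a median of -0.39, and after quantile normalization 1 was higher and 5 were lower, with a median of -0.52. Sesn1, a sestrin, rose from 0.41 and 1.09 to 3.44 and 3.06 (log2 fold change 2.5, adjusted p = 0.00604 in limma), and Gadd45a, a stress gene that acts at the cell cycle, rose by 1.93 (adjusted p = 0.0400). Ei24 fell by 3.80 (adjusted p = 0.0132, with 1 of 2 differentiated arrays not well above background), Perp, an effector of apoptosis, by 2.23 (adjusted p = 0.00708) and the cyclin G1 gene Ccng1 by 2.04 (adjusted p = 0.00851). Among 17 regulators of p53, the family member Trp63 rose by 2.41 (adjusted p = 0.0158) and 0 were lower, against 1 lower after quantile normalization. Mdm4, the partner of Mdm2, was at -0.97 (adjusted p = 0.327). Of 13 Polycomb genes and antagonists that act on the Cdkn2a locus, Cbx7 was at least 3.80-fold higher (adjusted p = 0.0214 in limma). This is a description, since its probe passed the filter only through the 2 differentiated arrays. The demethylase Kdm6b fell by 1.71 (adjusted p = 0.0308 in limma), but did not pass with the replicate number as a block. Of 11 immediate early genes, which respond to growth factors, Egr2 rose by 3.56 and Fos by 1.47. The log2 fold changes of Ier3, Myc and Fosl1 were -3.39, -2.79 and -2.62. The adjusted p of these genes lay between 0.00129 and 0.0388 in limma. With the replicate number as a block, 1 gene of this list was higher and 3 were lower.

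**Figure D5:**
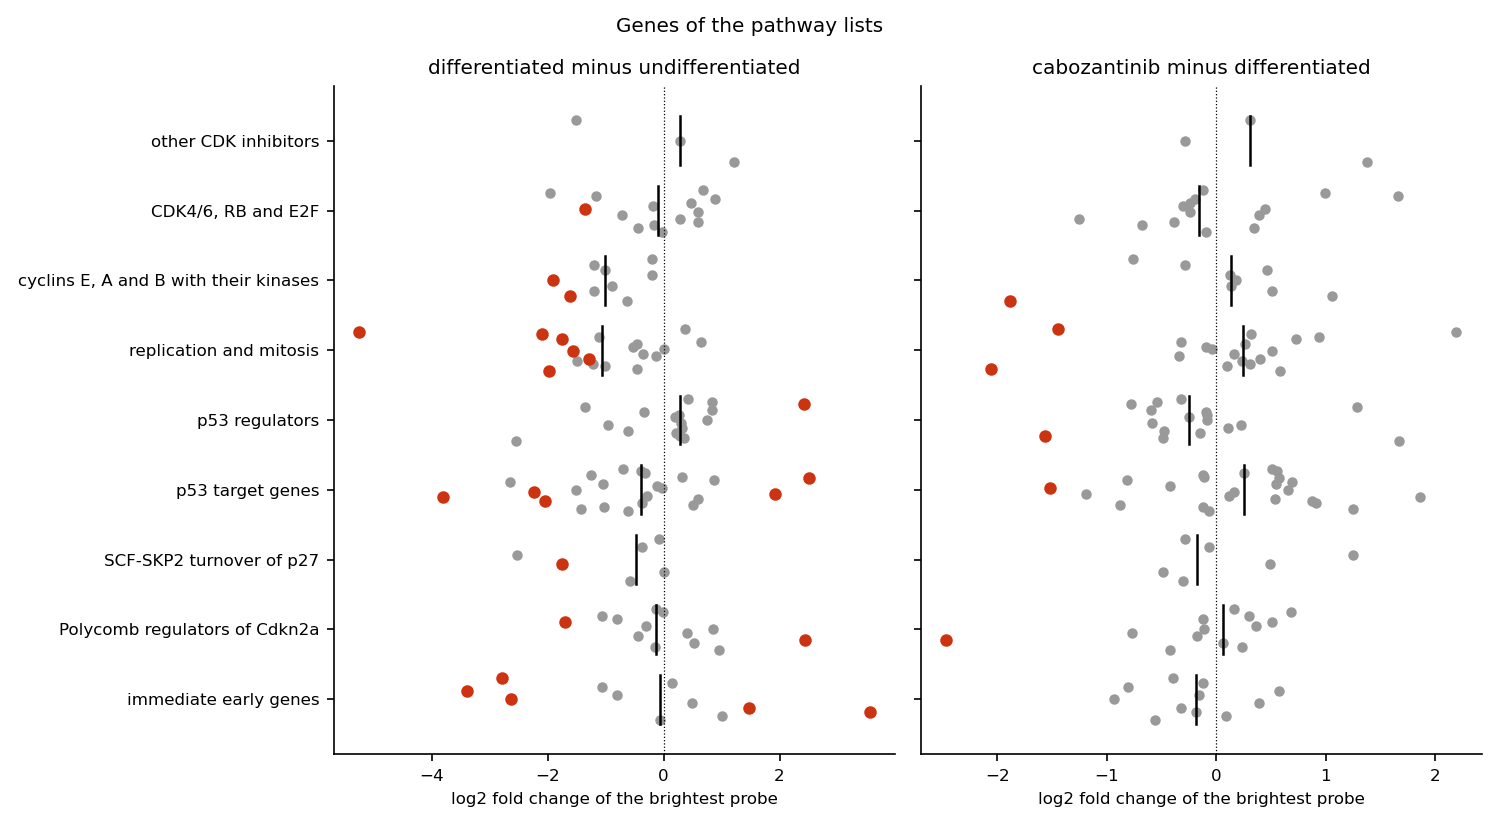
Log2 fold change (x axis) of each gene of 9 pathway lists (rows), read at its brightest probe, in differentiated against undifferentiated cells (left) and in cabozantinib-treated against differentiated cells (right), with red for an adjusted p under 0.05 in limma and a bar at the median of the list. On the left the medians of the replication and mitosis genes (-1.07) and of the later cyclins (-1.02) are below 0, and on the right they are 0.25 and 0.13.

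With cabozantinib against differentiated cells, no gene of these 9 lists passed the test as higher, and 10.5% of all named genes passed, 0.968% higher and 9.56% lower, with a median of -0.21. The genes that were lower were Tyms (log2 fold change -1.45, adjusted p = 0.0476), Chek1 (-1.56, adjusted p = 0.0400), Plk2 (-1.52, adjusted p = 0.0410), Ccna1 (at least 1.28-fold), Cbx7 (at least 2.51-fold) and Aurkb (adjusted p = 0.0321). No fold is given for Aurkb, which was well above background on 1 of 2 differentiated arrays and on 0 of 2 with cabozantinib. The value of Cbx7 is again a description, as it was above background in differentiated cells only. After quantile normalization none of the 6 passed. The medians were 0.25 for the replication and mitosis genes, 0.13 for the later cyclins and 0.26 for the p53 targets. Cdkn1c was at 1.38 (adjusted p = 0.0565), and cabozantinib-treated cells were 2.60 above undifferentiated cells (adjusted p = 0.00650), at 2.15 and 1.73 against -0.94 and -0.38. Against undifferentiated cells, where 22.3% of named genes passed, 8.21% higher and 14.1% lower, 4 of 18 replication and mitosis genes and 3 of 9 later cyclins and kinases were lower and 0 were higher.

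Markers of cell types were read in the same way, in a comparison where 14.7% of all named genes passed with differentiation, 8.5% higher and 6.25% lower. Of 11 osteoblast markers, 11 and 11 were well above background in undifferentiated, 9 and 10 in differentiated and 9 and 11 in cabozantinib cells. The factor Runx2 was not well above background on either differentiated array, and Sp7 not on 1 array each of the differentiated and cabozantinib groups. Of 11 osteoblast markers tested, 4 rose with differentiation, among them the osteocalcin gene Bglap2 by 5.06 and Phex by 6.38 (adjusted p = 0.000538 and 0.000395 in limma), and the median of the list was 0.26. The osteopontin gene Spp1 was at 3.64 and 5.31 in undifferentiated, 1.2 and 0.41 in differentiated and 2.71 and -0.46 in cabozantinib cells, with a log2 fold change of -3.67 with differentiation (adjusted p = 0.0548). Sp7 was at -1.85 (adjusted p = 0.315), and Runx2 had an adjusted p of 0.0691 with all of its differentiated values below its undifferentiated ones. Markers of macrophages and osteoclasts rose in 6 of 9. Their summed signal, in units of the 75th percentile over 10 genes, was 98.8 and 56.6 in undifferentiated, 319 and 478 in differentiated and 286 and 356 in cabozantinib cells, with the receptor Csf1r the brightest in the last 4 and Ctsk in the first 2. Calcr was not well above background on any array.

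Adipocyte markers rose in 4 of 7, with a summed signal over 8 genes of 5.27 and 6.11, then 65.6 and 91.1, then 56.6 and 56.4, led by Lpl on 5 arrays and by Fabp4 on differentiated replicate 2, with Lep not well above background on any array. Chondrocyte markers rose in 4 of 8, with summed signals of 194 and 93.6, 121 and 221, and 131 and 173, led by Col2a1 on every array. These adipocyte and chondrocyte counts include Adipoq and Matn3, which were not well above background on either undifferentiated array. Both passed the filter only through the differentiated and cabozantinib arrays, so that their rises are descriptions. Muscle markers fell in 1 of 6, the actin Acta1, with summed signals of 5.94 and 4.85, 1.60 and 2.62, and 4.24 and 4.10, led by Acta1 or Tnnt1. Of the markers tested, 1 of 5 endothelial (Cdh5) and 1 of 4 erythroid (Epor) rose. In lists this short, the muscle list among them, 1 gene is not read as a change of the list. The endothelial markers had a summed signal of at most 1.72 on any array, led by Kdr. Tek, Tie1 and Klf1 were not well above background on any array. On this scale, with cabozantinib against differentiated cells, 2 of 7 adipocyte, 2 of 5 endothelial, 1 of 8 chondrocyte and 1 of 6 muscle markers fell, and 1 of 11 osteoblast (Ibsp) and 1 of 6 muscle markers (Acta1) rose. Of all named genes, 10.5% passed in that comparison, 0.968% higher and 9.56% lower. The part of these other cells in the levels of the cyclins and inhibitors was not tested.

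Among 15555 probes of named genes well above background on every array, those whose levels most resembled each member over the 6 arrays were listed as a description. The nearest to Ccnd1 were Ciz1, Emp3 and Gcn1 (Pearson r of 0.999, 0.998 and 0.998). The nearest to Cdkn1a were Stmn1, Gfer and Itfg2 (0.996, 0.995 and 0.994), and to Cdkn1b Apbb1ip, Rbks and Rnf144b (0.999 each). The nearest to Ccnd2 were Rgs12, Prdx6 and Rnf7, to the Ccnd3 probe A_51_P238448 Cpt1c, Phf23 and Aamp, and to Mdm2 Nadk, Ccdc116 and Carhsp1 (all above 0.995). The 6 arrays share 3 conditions, and no test was made of these values.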

How the data were processed

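RNA from 6 samples of primary mouse calvarial osteoblasts, 2 per condition, was read on one-color (Cy3) Whole Mouse Genome Oligo Microarrays. Per the file headers, the deposited intensity values come from Feature Extraction 11.0.1.1, which subtracted the background and removed spatial trends, and are linear, in arbitrary units and not scaled between arrays. The authors also deposited log2 values of 30439 probes, whose medians are nearly equal between arrays (7.504 to 7.506). The steps that made them are not given in the sources used here. They served as an alternative.

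Of the 39429 probes, 69.1% were named through RefSeq accessions (20659 genes). Control spots and outlier spots were removed, log2 signals were averaged over the spots of a probe, and each array was then shifted so that its 75th percentile was 0. The tested probes had a value on all 6 arrays and a signal well above background on 2 or more (27196, with 40 left out for a missing value). Where a group had no array well above background, the difference is a bound against, on each of its arrays, the lowest signal that still counted as well above background, and no fold is given where both groups lacked one.

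The fit used limma 3.58.1 (R 4.3.3) over the 6 arrays together, with condition as the only term (3 residual and 4.3 prior degrees of freedom) and Benjamini-Hochberg adjustment over all probes. The test was checked on simulated data with independent noise and no effect of slide, so that the check does not cover slide or replicate patterns in the arrays. The array methods name no test. A paired t-test is named in the general statistics section, but no label ties replicate numbers across conditions. The differences between replicates 1 and 2 over the probes correlated at -0.506 and -0.527 between the undifferentiated and the other groups and at 0.265 between those, so that the numbers were not taken as pairs and the replicate block was an alternative. Other alternatives were quantile normalization, normexp (offset 50, on the median signals, as the files used hold no mean signal), filters, the arrays compared, a variance trend, the methods' t-test and each array left out. Leaving out an array left its group with a single array. In such a fit the spread came from the other groups only. A gene of a list was counted at its brightest probe (highest mean over the arrays), and genes were named where they are members, markers, the 3 highest or lowest of a list among those called, or fixed by name (the other CDK inhibitors, Cdk4, Cdk6, Rb1, Mdm4, Mki67). Members and lists were chosen with earlier results of these data known. Promoters came from RefSeq (GRCm38.p6), with no entry for Ccnd1 and Ccnd2, and no coordinates of probes were used. Figures were drawn with matplotlib 3.10.9 in Python 3.11.15. The number of arrays limits the precision.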

Additional observations from a re-analysis of the deposited data

How the results depend on the processing

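In differentiated against undifferentiated cells all 14 probes kept their direction under every alternative. The count of probes called (3782, 8 of the 14) was 1367 (4 of 14) with normexp, 2517 with no filter on dim probes and 2728 (7 of 14) with the replicate block, and leaving out 1 array gave 1915 to 4324 (3 to 9 of 14). The methods' t-test called 0 after Benjamini-Hochberg adjustment, paired or not, and 1090 (3 of 14) at an unadjusted p and a fold of 2 when paired. In cabozantinib-treated against differentiated cells the count (3413, 2 of 14) was 139 with quantile normalization, 0 with normexp, the authors' values, no filter or the t-test, 1 among probes well above background on all 6 arrays, 682 with the replicate block and 5601 (3 of 14) on the 4 arrays alone. Of the 14, 0 passed in each of these but the last, and in the t-test at an unadjusted p and a fold of 2, 0 paired and 1 unpaired. Leaving out an array gave 0 (any differentiated or cabozantinib array) to 5601 (0 to 3 of 14). At an unadjusted p under 0.05, 7881 probes passed as reported, 1554 with normexp and 6595 on the authors' values. The direction turned with quantile normalization and on the authors' values for Cdkn1a A_55_P1986282 (0.69 and 0.69), Cdkn2a A_55_P2008438 (0.0313 and 0.0355), Cdkn2b A_55_P1988183 (0.0835 and 0.0888) and Mdm2 (0.0524 and 0.0581), none of which had passed. With an array left out, these probes ranged from -0.48 to 0.12, -0.54 to 0.39, -0.26 to 0.18 and -0.24 to 0.11, Cdkn2c from -1.45 to 0.0059 and Ccnd3 A_55_P2041075 from -0.17 to 0.67. The computed Trp53 value also changed sign, at 0.33 and 0.41 in the same settings and from -0.47 to 0.13 with an array left out. Neither a fold nor a direction is read from these Trp53 values, because the probe was not well above background in either group. In cabozantinib-treated against undifferentiated cells the count (6644, 7 of 14) was 4008 with quantile normalization, 4001 on the authors' values, 762 (0 of 14) with normexp, 3804 (2 of 14) with no filter, 3449 among probes well above background on all arrays and 3700 (3 of 14) with the replicate block. It was 0 paired and 2 unpaired (0 of 14) in the adjusted t-test, 1516 (1 of 14) paired at an unadjusted p and a fold of 2, and 2146 to 7935 (1 to 6 of 14) with an array left out. On the 4 arrays alone 4 of 14 passed. The direction turned without undifferentiated replicate 1 for Cdkn2c (range -0.29 to 0.85 with an array left out) and Ccnd3 A_55_P2041075 (-1.05 to 0.18). Exchanging the replicate numbers of the undifferentiated arrays in the block, chosen after seeing the data, gave 7358, 8278 and 12299 probes and 10, 3 and 11 of 14. In differentiated against undifferentiated cells the later cyclins called numbered 4 with quantile normalization and 0 with the replicate block (2 as reported), and the p53 regulators 1 higher and 1 lower with quantile normalization or the mean over probes (1 higher as reported). The p53 targets were 1 higher and 5 lower with quantile normalization and 1 and 3 with the block (2 and 3 as reported). The replication and mitosis genes called lower were 4 with the block, 7 with quantile normalization and 8 with the mean over probes (6 as reported), and the immediate early genes 1 higher and 3 lower with the block (2 and 3 as reported). The block also left 0 of the CDK4/6 and SKP2 lists and 1 of the Polycomb list. In cabozantinib-treated against undifferentiated cells the block left 1 of 3 later cyclins and kinases, 2 of 4 replication and mitosis genes, 2 of 4 p53 targets and 0 of 3 p53 regulators called, the last also 0 with quantile normalization. The cause of these differences was not tested.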
